A study of Mus musculus with 6 samples.

Results

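The genes described here are 9 components of the Notch pathway in dendritic cells (DCs): the receptors Notch1 and Notch2, the ligands Dll1 and Jag1, the transcription factor Rbpj, and Nrarp, Dtx1, Hes1 and Hey1, which the pathway switches on. They were taken by gene symbol from the array's annotation, and all 9 had a probe set, so they are 9 of 12393 genes measured. The cells were CD11c-positive conventional DCs sorted by flow cytometry from BALB/c mice, an inbred laboratory strain, without any treatment named in the labels. Affymetrix 3′ arrays measured their RNA, 3 arrays labelled spleen and 3 labelled lymph node, numbered 1 to 3. The labels give neither age nor genotype. They do not state that the 3 arrays of a group hold RNA of different mice or of different pools, so every p-value here rests on array-to-array spread that could be technical.

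Notch receptors are transmembrane proteins that are cut when a neighbouring cell presents a Delta or Jagged ligand. The released intracellular part enters the nucleus, binds Rbpj and Mastermind proteins and activates target genes. In the spleen, Notch2 and Rbpj are known for maintaining the ESAM-high, CD11b-positive subset of conventional DCs (cDC2), and stromal cells present Dll1 to blood cells there.

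All values are log2 of the deposited intensity, and a positive difference means a higher value in the arrays labelled spleen. The array medians over all genes lay between 5.41 and 5.50, and control probe sets for a bacterial transcript (Trpn) at the bottom of the scale lay between 2.01 and 2.20. Conventional DC markers were present on all arrays, with 9 of 9 above the median gene level. The migratory DC markers are known from DCs that enter lymph nodes from tissues. Nevertheless, 8 of the 12 were higher on the side labelled spleen at a limma adjusted p under 0.05, and 0 were lower. Over all genes, 2.03% were higher and 1.37% lower. Of the 12 markers, 10 had positive differences and 2 negative ones. Their summed intensity was 7882 to 11419 there and 4132 to 5217 in the arrays labelled lymph node. This goes against the labels, so the groups are called by their labels throughout.

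Dtx1 and Dll1 were the members that differed past the threshold, in opposite directions, and the 250 bases before their transcription starts are shown because the results turn on them. Rbpj is shown beside them because its window held the core of its own binding motif. The sequences are RefSeq's, assembly GRCm38.p6, written in the direction of the gene. Capitals mark matches, on either strand, to TGGGAA (the core bound by Rbpj), CAGGTG (an E-box of E proteins such as Tcf4) or CACGTG (an E-box of Hes and Hey proteins), and no match overlapped another. For genes with 2 listed starts, the outer one is given.
Dtx1, chr5:120711670-120711919, minus strand: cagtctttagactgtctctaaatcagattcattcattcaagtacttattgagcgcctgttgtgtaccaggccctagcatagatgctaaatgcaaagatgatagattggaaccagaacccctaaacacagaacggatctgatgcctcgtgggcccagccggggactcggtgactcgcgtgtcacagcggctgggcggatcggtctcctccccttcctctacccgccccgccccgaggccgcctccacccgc
Dll1, chr17:15376933-15377182, minus strand: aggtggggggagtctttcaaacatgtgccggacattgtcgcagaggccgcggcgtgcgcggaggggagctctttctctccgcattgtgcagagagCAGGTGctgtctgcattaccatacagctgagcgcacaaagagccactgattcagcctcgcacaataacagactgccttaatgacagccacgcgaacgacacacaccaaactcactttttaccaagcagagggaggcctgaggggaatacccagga
Rbpj, chr5:53590096-53590345, plus strand: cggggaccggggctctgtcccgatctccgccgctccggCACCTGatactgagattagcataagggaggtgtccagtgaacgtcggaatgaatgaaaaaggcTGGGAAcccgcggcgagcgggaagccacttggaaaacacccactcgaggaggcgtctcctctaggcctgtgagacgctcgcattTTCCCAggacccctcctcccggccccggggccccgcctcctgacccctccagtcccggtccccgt

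The Dtx1 window held none of the 3 motifs. The Dll1 window held 1 CAGGTG, whose first base lies 155 bases before the start. The window before the other listed start of Dll1, not shown, held none of the 3 motifs. The Rbpj window held TGGGAA at 149 bases before the start and its reverse complement at 65 bases, and the reverse complement of CAGGTG at 212 bases. Of the 7 members in the promoter table, Notch1, Notch2, Dll1, Jag1, Rbpj, Nrarp and Dtx1, only Rbpj had a TGGGAA in this window and only Nrarp had a CACGTG, in 250 bases before each listed start. Among 32851 windows of all genes, 21.6% held TGGGAA, 17.2% CAGGTG and 6.0% CACGTG. A match is a string of letters, not a measured binding site.

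Of the 9 members, 2 passed an adjusted p of 0.05 in limma, where 421 of 12393 genes passed (3.4%). Dll1 was the 1 member higher in the arrays labelled spleen (2.03% of all genes) and Dtx1 the 1 lower (1.37% of all genes). The median difference of the members was 0.31, and that of all genes was -0.0053. The 2 groups of arrays did not overlap for Dtx1, Dll1, Notch1 and Notch2, which is 4 of 9 members against 24.5% of all genes.

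**Figure D1:**
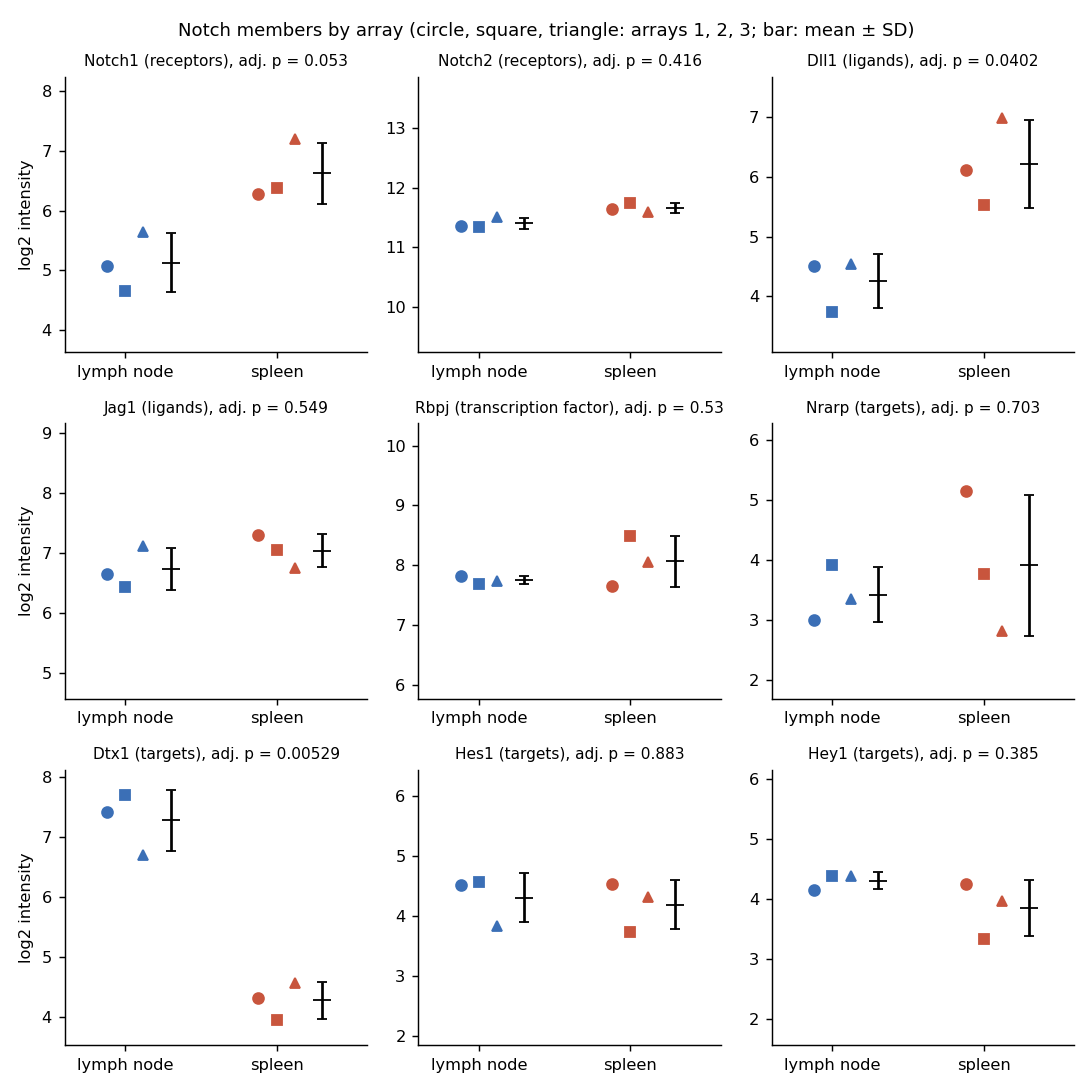
The log2 intensity of each member in each array, 3 labelled lymph node (blue) and 3 labelled spleen (red), with the mean ± SD beside them; every panel spans the same number of log2 units. Dtx1 lies at 6.71 or more in the arrays labelled lymph node and at 4.57 or less in those labelled spleen, Dll1 and Notch1 lie higher in the arrays labelled spleen, and Jag1, Rbpj, Nrarp, Hes1 and Hey1 overlap.

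Among the receptors, Notch1, the receptor that directs T cell development, had log2 intensities of 5.08, 4.66 and 5.64 in lymph node arrays 1 to 3 and 6.28, 6.38 and 7.20 in spleen arrays 1 to 3. Every array labelled spleen lay above every array labelled lymph node, with 0.64 between the nearest arrays. The difference was 1.49 ± 0.33 (SE, n = 3 each), a 2.81-fold ratio, and narrowly missed the threshold (limma adjusted p = 0.0530). The second probe set of Notch1 read 3.47, 3.66 and 4.55 against 5.35, 4.82 and 6.04. Its difference of 1.51 had nearly the same size and also missed the threshold over all probe sets (limma adjusted p = 0.0846), which 2.78% of 22626 probe sets passed.

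Notch1 lay near that threshold under the other fits as well. The call appeared in 7 of 17 alternatives, for example after median centring (adjusted p = 0.0454) and the fit without lymph node array 3 (0.0487), over a range of 0.0139 to 0.929. Its difference was positive in all 17 and lay between 1.20 and 1.75 with 1 array left out.

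Notch2, the receptor of the ESAM-high splenic DCs, was bright in all 6 arrays. Its log2 intensity was 11.36, 11.34 and 11.51 in the arrays labelled lymph node and 11.64, 11.75 and 11.59 in those labelled spleen. The groups were only 0.08 apart, and the difference of 0.26 (95% interval -0.09 to 0.60, 1.19-fold) did not pass (limma adjusted p = 0.416). The dimmer probe set pointed the other way, with 7.29, 7.58 and 7.36 against 6.40, 7.15 and 7.31, a difference of -0.45 (limma adjusted p = 0.405 over all probe sets). The data therefore gave no direction for Notch2, and the interval of the brighter probe set allows neither a doubling nor a halving of that signal.

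Of the ligands, Dll1, a Delta protein that is presented to Notch receptors of neighbouring cells, had log2 intensities of 4.51, 3.74 and 4.54 in the arrays labelled lymph node and 6.11, 5.53 and 6.99 in the arrays labelled spleen. All 3 lymph node values were below the array median, all 3 spleen values were above it, and the nearest arrays were 0.99 apart. Its signal on the spleen side was 3.85-fold higher, a difference of 1.94 ± 0.38 (SE, n = 3 each; limma adjusted p = 0.0402). It had 1 probe set, so no other reading was at hand.

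The call on Dll1 was lost in 7 of 16 alternatives, while its difference was positive in all 16. Leaving out any 1 of the lymph node arrays ended it (adjusted p = 0.134, 0.153 and 0.0714 for arrays 1, 2 and 3), as did leaving out spleen array 1 (0.106) or the pair numbered 3 (0.0587). Adding 16 to each value ended it too, with a difference of 1.36 (0.0850). The adjusted p ranged from 0.0108 to 0.924 over the alternatives, and the difference was 1.56 to 2.28 with 1 array left out.

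Jag1, a ligand of the Jagged family, overlapped between the groups. Its values were 6.64, 6.43 and 7.11 in the arrays labelled lymph node and 7.30, 7.05 and 6.75 in those labelled spleen. The difference was 0.31 (95% interval -0.23 to 0.85; limma adjusted p = 0.549), and the other probe set gave 0.19 (limma adjusted p = 0.739). An increase beyond 0.85 or a decrease beyond 0.23 lies outside the interval of the brighter probe set.

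Rbpj, the DNA-binding protein through which all Notch receptors act, read 7.82, 7.69 and 7.74 in the arrays labelled lymph node and 7.65, 8.49 and 8.05 in the arrays labelled spleen. The arrays labelled lymph node were within a narrow band that spleen array 1 fell below and the other two exceeded. The difference of 0.31 (95% interval -0.21 to 0.83) did not pass (limma adjusted p = 0.530). The second probe set had the opposite sign, at -0.23 (limma adjusted p = 0.743), and no direction can be given for Rbpj.

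**Figure D2:**
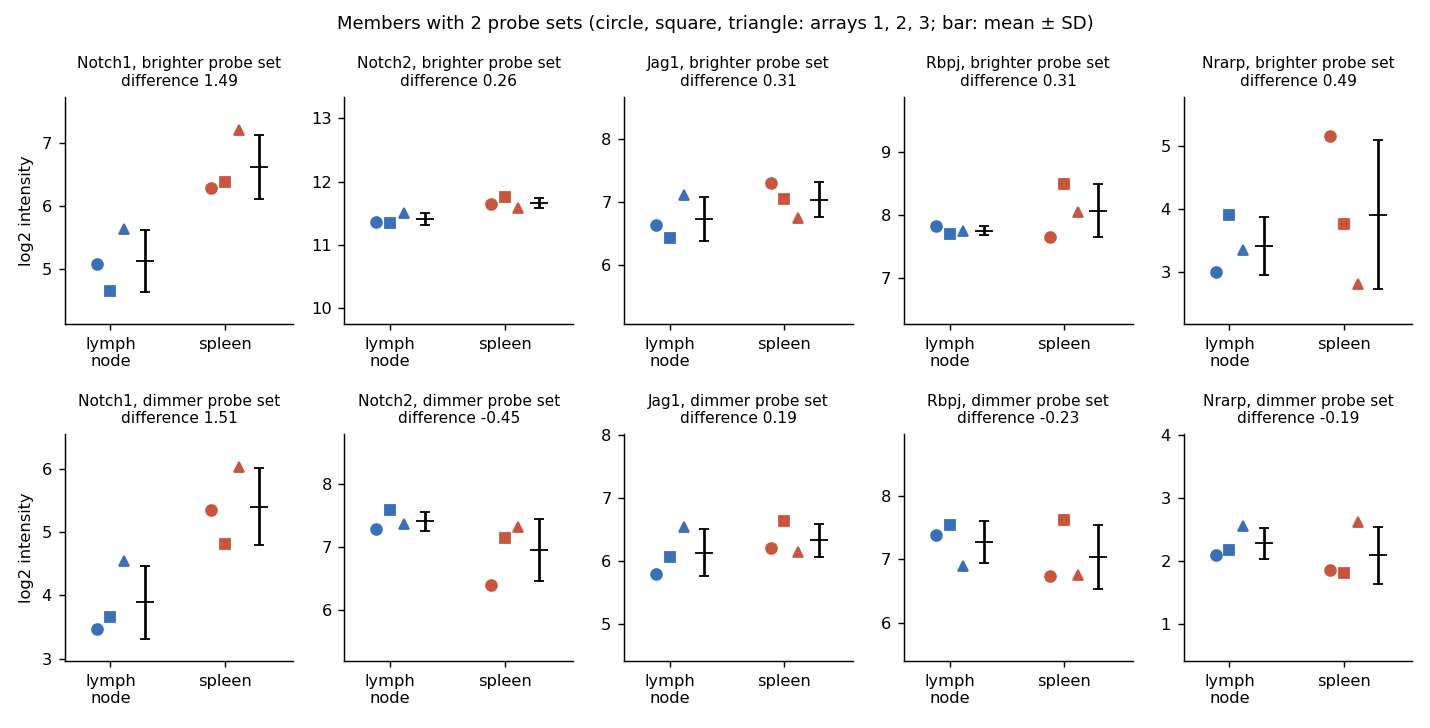
The log2 intensity by array for the 5 members with 2 probe sets, the brighter in the upper row and the dimmer in the lower, with mean ± SD beside the 3 arrays of each group. Both probe sets agree in sign for Notch1 (1.49 and 1.51) and Jag1 (0.31 and 0.19) and differ in sign for Notch2, Rbpj and Nrarp.

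Among the target genes, Dtx1 stood apart in these data. It encodes Deltex1, a ubiquitin ligase that is itself induced by Notch signals. Its log2 intensity was 7.42, 7.71 and 6.71 in lymph node arrays 1 to 3 and 4.31, 3.95 and 4.57 in spleen arrays 1 to 3, on the deposited linear scale 171.8, 209 and 104.5 against 19.9, 15.5 and 23.7. The nearest arrays of the groups were 2.14 apart, all arrays labelled lymph node were above the array median, and all arrays labelled spleen were below it. Dtx1 was 8.01-fold lower in the arrays labelled spleen, with a difference of -3.00 ± 0.29 (SE, n = 3 each; limma adjusted p = 0.00529), rank 18 of 12393 genes by p. Its values in the arrays labelled spleen lay below the array medians of 5.41 to 5.50, where signals are dim, so the size of the fold is uncertain. In RNA of a sorted population, fewer cells of a type and less RNA per cell cannot be told apart.

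Dtx1 passed in 16 of 17 alternatives, with a difference between -3.29 and -2.79 and an adjusted p of 0.00869 to 0.0433 when 1 array was left out. With 16 added to each value the difference was -2.28 (adjusted p = 0.0195). The exception was a fit that took the mean signal of the poly-A controls, described with the last results, as a covariate. There the difference was -3.14 ± 0.70 (SE) but the adjusted p was 0.853. Dtx1 had 1 probe set.

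The other 3 target genes were dim, below the array median in all 6 arrays, and overlapped between the groups. Nrarp, an ankyrin-repeat protein that feeds back to inhibit Notch, read 3.00, 3.91 and 3.35 in the arrays labelled lymph node and 5.15, 3.77 and 2.81 in those labelled spleen. Spleen array 1 alone was high, and without it the difference of 0.49 became -0.13 (limma adjusted p = 0.703 with all arrays and 0.916 without it). The second Nrarp probe set lay between 1.81 and 2.61, around the level of the Trpn controls.

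Hes1, a basic helix-loop-helix repressor and the best known Notch target, read 4.52, 4.56 and 3.83 against 4.53, 3.73 and 4.31. The difference was -0.11 (95% interval -0.76 to 0.54; limma adjusted p = 0.883), and its sign changed when lymph node array 2 or spleen array 2 was left out. Hey1, a related repressor, read 4.15, 4.39 and 4.39 against 4.26, 3.34 and 3.97. Its difference of -0.45 (95% interval -1.03 to 0.12; limma adjusted p = 0.385) came largely from spleen array 2, without which it was -0.19.

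**Figure D3:**
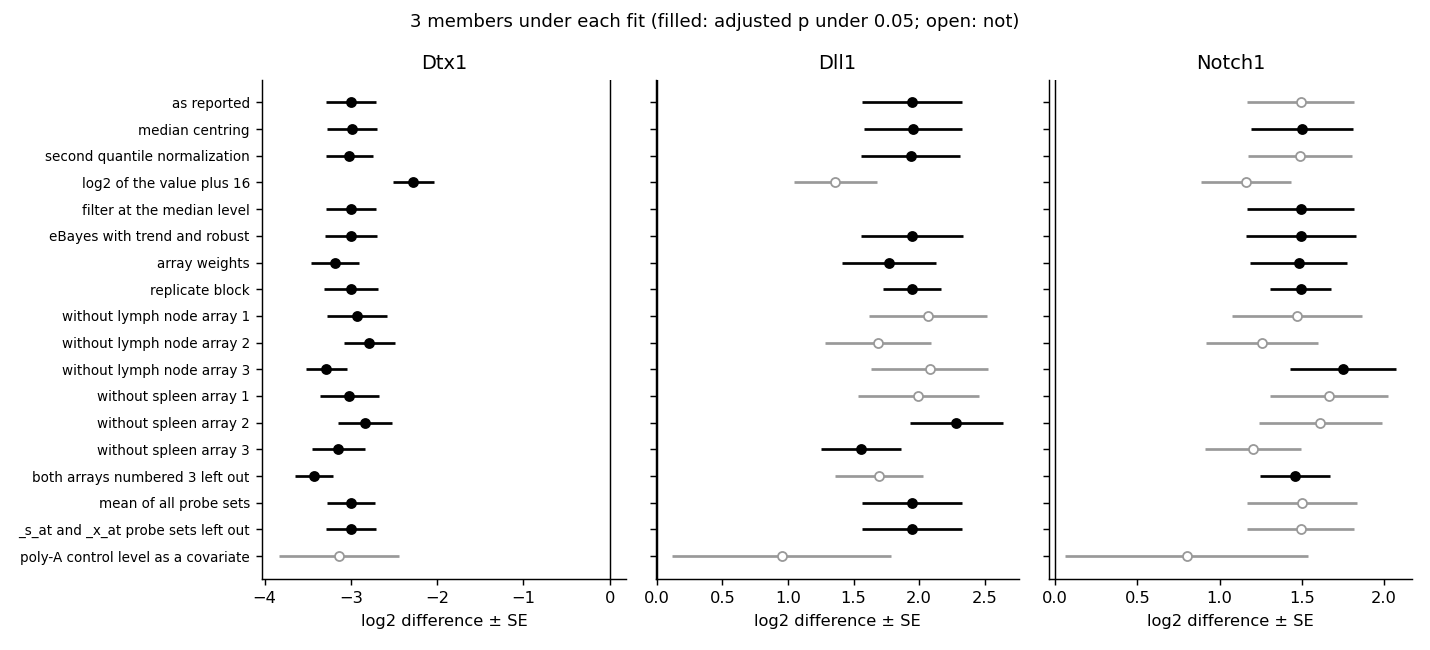
The log2 difference ± SE of Dtx1, Dll1 and Notch1 as reported and under each of the other fits, filled where the adjusted p was under 0.05 and open where not; a gene left out by a filter has no point. Dtx1 lies between -3.43 and -2.28 and is filled in all fits but the one adjusted for the poly-A controls, whereas Dll1 and Notch1 change between filled and open.

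The rest of the pathway was read from a list of 71 further genes, of which 58 were measured. In limma 4 of the 58 passed (6.9%, against 3.4% of all genes), 1 higher and 3 lower in the arrays labelled spleen, with a median difference of -0.07. All 4 belong to the modifiers of receptors and to the target genes. The list was put together with earlier results of these data known, and it overlaps the B cell markers in Cr2 and the endothelial markers in Esam.

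Il2ra, the alpha chain of the interleukin-2 receptor and a Notch target in lymphocytes, read 2.35, 2.77 and 2.89 in the arrays labelled lymph node and 6.87, 5.68 and 5.87 in those labelled spleen. Il2ra was higher on the spleen side by 3.47 ± 0.32 (SE, limma adjusted p = 0.00529), and its values in the other arrays were close to the Trpn controls, so the size of the difference is uncertain. Its second probe set gave 1.32 and overlapped between groups (limma adjusted p = 0.188 over all probe sets). Il2ra passed in 15 of 16 alternatives (adjusted p from 0.00218 to 0.880).

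Cr2, the complement receptor CD21 and a Notch2 target in B cells, read 6.72, 6.30 and 6.25 against 4.92, 5.46 and 4.11. It was lower in the arrays labelled spleen (-1.60 ± 0.33 SE, limma adjusted p = 0.0466) but passed in only 8 of 17 alternatives (adjusted p from 0.0271 to 0.978). Ccnd1, the cell cycle gene of cyclin D1, was 2.03-fold lower (9.56, 9.60 and 9.23 against 8.34, 8.56 and 8.43, limma adjusted p = 0.0270), and all 3 of its probe sets had that sign. Ccnd1 passed in 13 of 17 alternatives (adjusted p from 0.0113 to 0.902). Of the targets past the threshold, Cr2, Ccnd1 and Dtx1 thus shared a direction that Il2ra opposed. Among the 10 measured further targets, 1 was higher and 2 lower past it, against 2.03% and 1.37% of all genes. As a whole these 10 had 6 positive and 4 negative differences, with a median of 0.13.

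Of the genes that modify ligands and receptors, Lfng, a fringe glycosyltransferase that changes which ligands a Notch receptor answers to, was the 1 of 9 that passed. It was 1.90-fold lower in the arrays labelled spleen (6.61, 7.04 and 6.64 against 6.05, 5.76 and 5.68, limma adjusted p = 0.0446), and its second probe set gave -1.34. Over all probe sets neither passed (limma adjusted p = 0.0507 for the brighter and 0.0687 for the second). Both probe sets separated the groups, yet Lfng passed in only 5 of 17 alternatives, and the adjusted p ranged from 0.0239 to 0.880.

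The remaining lists had no member past the threshold in limma. Over all genes, 2360 of 12393 (19%) had an unadjusted p under 0.05, against which the unadjusted counts of these lists are to be read. Of 5 other receptors and ligands 0 passed, also at an unadjusted p of 0.05, with differences between -0.11 (Dll3) and 0.21 (Notch4). Only 1 of these 5, Jag2, was above the median gene level, so dim signals limit what can be read for the others. Of 7 proteases that cut Notch 0 passed (2 at an unadjusted p of 0.05), led by Adam10 (0.44, adjusted p = 0.208) and Furin (0.48, 0.241). Of 8 genes of receptor turnover 0 passed (3 unadjusted), led by Dtx2 (0.73, adjusted p = 0.108), a relative of Dtx1, and by the ubiquitin ligase gene Itch (-0.66, 0.135).

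The nuclear partners of Rbpj gave the same result. Of 5 coactivators 0 passed (1 unadjusted), with Snw1 at 0.55 (adjusted p = 0.126) and the acetyltransferase gene Kat2a at -0.31 (0.445). Of 9 corepressors 0 passed (2 unadjusted), with Spen at -0.64 (adjusted p = 0.209) and the deacetylase gene Hdac2 at 0.40 (0.249). The 5 measured genes of ESAM-high splenic cDC2 and of the RelB and lymphotoxin pathway that the subset needs all had negative differences, but 0 passed (1 unadjusted). Their median was -0.47, with Esam at -0.64 (adjusted p = 0.173) and Relb at -0.40 (0.308). Il23a, at -0.01, read 2.35 to 2.61, close to the Trpn controls, and all but Esam overlapped between the groups. Over all genes, 6282 of 12393 differences were negative.

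**Figure D4:**
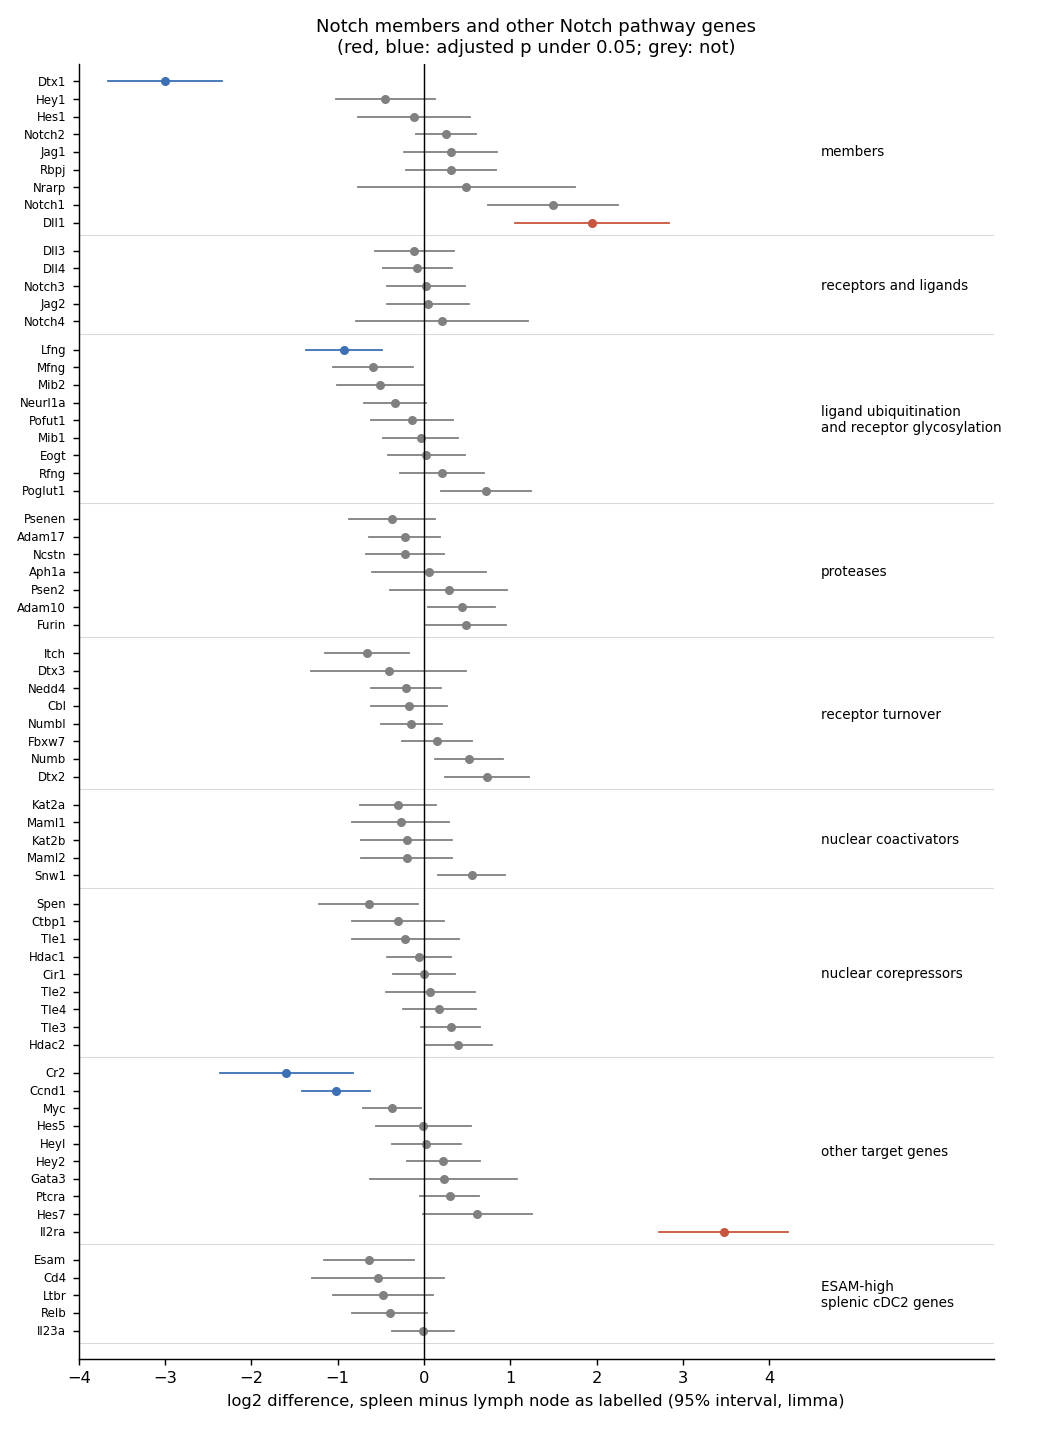
The log2 difference, spleen minus lymph node as labelled, with its 95% limma interval for the 9 members and 58 further pathway genes, grouped by role; red and blue mark genes past an adjusted p of 0.05. Dtx1 at -3.00 and Il2ra at 3.47 lie farthest from 0, and most receptors, proteases and nuclear partners lie within 1 unit of it.

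The genes whose pattern over the 6 arrays was most like that of Dtx1 were Arhgap6, Abcb1a and Sash1, at root mean square distances of 0.50, 0.50 and 0.51 between log2 values centred on each gene's mean. Abcb1a encodes a drug efflux pump and Sash1 an adaptor protein. Sash1 read 10.60, 10.48 and 10.33 against 7.73, 7.52 and 6.73, Abcb1a 7.97, 8.04 and 7.86 against 5.48, 5.84 and 5.42, and Arhgap6 7.91, 7.70 and 7.69 against 5.59, 4.98 and 6.05. For Dll1 the nearest were Dntt, the terminal transferase of lymphocyte precursors, Chchd6, a mitochondrial inner membrane protein, and Asph, an aspartate hydroxylase, at distances of 0.20, 0.23 and 0.23. Dntt read 4.97, 4.37 and 4.79 against 6.75, 6.19 and 7.89, highest in spleen array 3 as Dll1 was.

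Markers of some other cell types also differed between the groups. Of 8 plasmacytoid DC markers, 3 were higher on the spleen side past the threshold (Ccr9, Klk1 and Blnk) and 0 lower, against 2.03% and 1.37% of all genes. All 8 had positive differences, and 6 did not overlap between the groups, against 24.5% of all genes. At an unadjusted p of 0.05 in limma 7 of the 8 passed, against 19% of all genes. The summed intensity of the 8 was 481.1 to 1106 in the arrays labelled lymph node and 1470 to 4853 in those labelled spleen. Their mean log2 level was 4.96, 5.01 and 6.13 against 7.05, 6.94 and 8.45. It was highest in spleen array 3, where Dll1 and Notch1 were highest too, and within the arrays labelled lymph node it was highest in array 3. The part of these cells in the values of Dll1 and Notch1 was not tested.

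Langerhans cell markers were higher for 2 of 4 genes (Cdh1 and Cldn1), with sums of 205.8 to 333 against 349.9 to 451.7, while Cd207 (0.67) and Epcam (-0.41) overlapped between the groups and did not pass. Conventional DC markers were lower past the threshold for 2 of 9 (Itgax and Ciita), with sums of 25652 to 27763 against 14559 to 21886. Of the 9, 8 had negative differences, and those 8 did not overlap between the groups, against 24.5% of all genes. At an unadjusted p of 0.05 in limma 6 of the 9 passed, against 19% of all genes. For T cells, in which Notch1 is abundant, 1 of 10 markers was higher (Cd28) and the sums of 418.8 to 630.6 and 529.9 to 1107 overlapped. For B cells, in which Dtx1 and Cr2 are known to be expressed, 2 of 11 were lower (Cr2 and Cd22), 7 differences were negative and 4 positive, and the sums of 540 to 647.1 and 380.8 to 891.6 overlapped. That overlap rested on Fcrla, which read 9.34 in spleen array 3. Without Fcrla, a choice made after seeing the data, the sums were 445.4 to 626.6 against 241.3 to 297.2 and did not overlap. Sums weigh bright genes most, and Cd22 and Cr2 were the brightest of the rest in the arrays labelled lymph node (means 8.11 and 6.43). Cd79a, Cd79b, Ms4a1 and Pax5 were below the median gene level and overlapped, at -0.13, 0.61, 0.29 and -0.12. Of all 11 B cell markers, 3 were lower without overlap and 0 higher, and their mean log2 level overlapped (4.76 to 5.14 against 4.61 to 4.88). The part of these markers in the value of Dtx1 was not tested. No marker was at 0, a value this scale does not reach.

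Endothelial markers had 1 of 8 higher (Cdh5) and 1 lower (Pecam1), with sums of 337.2 to 362.8 against 232.1 to 307.2 (Esam is in this list too). Neutrophil markers had 1 of 8 lower (Camp), with sums of 182.7 to 727.5 against 71.1 to 138.8. S100a9 (-3.44, limma adjusted p = 0.0536) and S100a8 (-2.63, 0.0569) narrowly missed the threshold. At an unadjusted p of 0.05 in limma 4 of 8 passed in each of these lists, against 19% of all genes. Stromal (0 of 8, 1 at an unadjusted p of 0.05), macrophage (0 of 10, 2 unadjusted), NK cell (0 of 6, 1 unadjusted) and erythroid markers (0 of 4, 0 unadjusted) had none past the threshold in limma. Their sums were 116 to 134.8 against 138.2 to 145.7, 1296 to 2133 against 742.4 to 1077, 368.5 to 919.3 against 450.8 to 1584 and 60.7 to 77.2 against 56.5 to 57.5. The mean log2 level of the stromal list was 3.53 to 3.90 over all arrays.

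The 24 poly-A control probe sets for bacterial transcripts, used as spike-in controls on these arrays, had mean log2 levels of 7.39, 7.80 and 7.96 in the arrays labelled lymph node and 9.02, 8.41 and 9.06 in those labelled spleen. The 3′ to 5′ log2 difference of Gapdh was 2.60 to 2.79 against 3.14 to 3.44, and that of beta-actin overlapped (-0.35 to -0.17 against -0.33 to -0.18). Both the poly-A and the Gapdh value separate the groups as the labels do. When limma also included the poly-A level, 0 of 12393 genes passed (701 at an unadjusted p of 0.05). Dtx1 kept its size there, at -3.14, while Dll1 was 0.95 ± 0.84 (SE) and Notch1 0.80 ± 0.74, and the poly-A level and the labels cannot be told apart in 6 arrays.

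**Figure D5:**
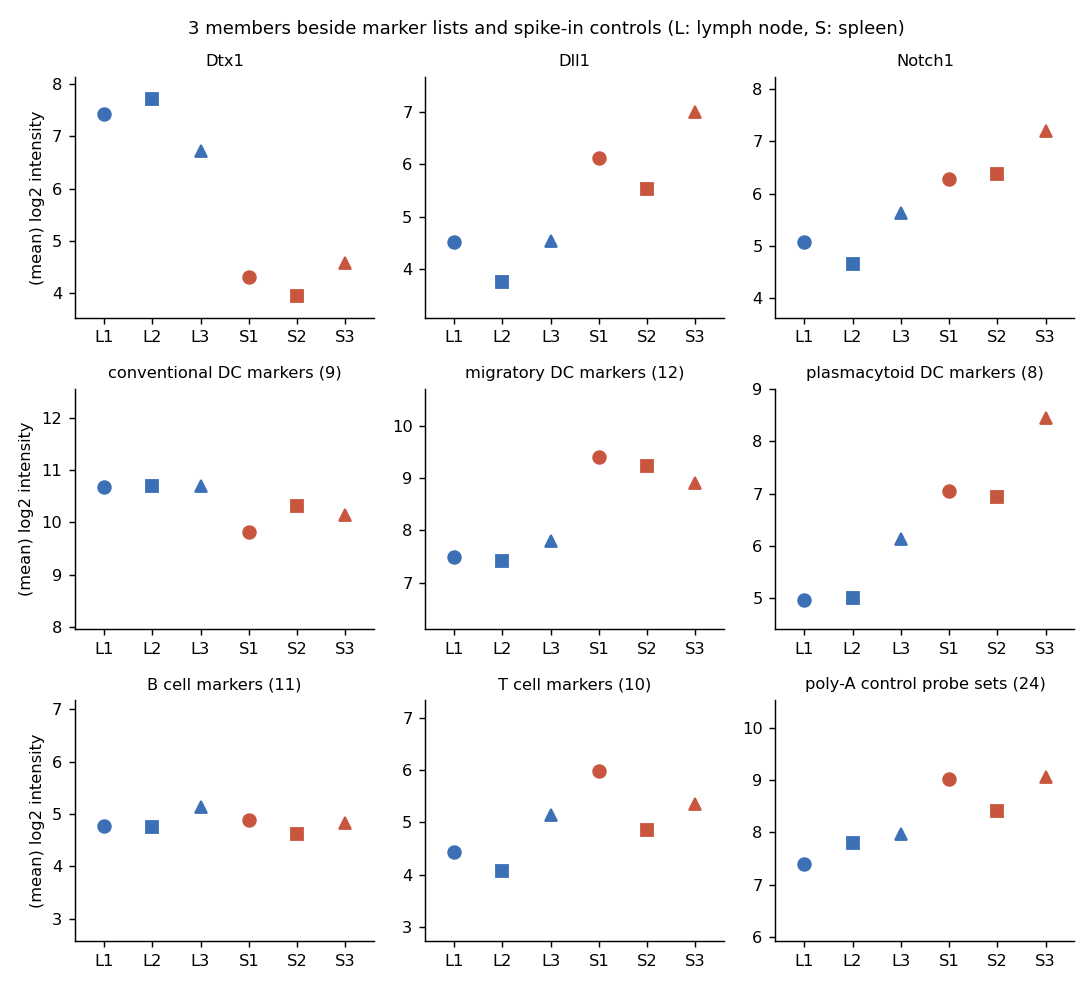
The log2 intensity of Dtx1, Dll1 and Notch1 and the mean log2 intensity of 5 marker lists and of the poly-A controls in lymph node arrays 1 to 3 (L1 to L3) and spleen arrays 1 to 3 (S1 to S3); every panel spans the same number of log2 units. Plasmacytoid DC markers, Dll1 and Notch1 are highest in spleen array 3, at 8.45, 6.99 and 7.20.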

How the data were processed

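RNA of sorted conventional DCs was measured on 6 arrays, 3 per organ label. Per the labels' protocols, 20 ng of carrier RNA was added at extraction and 2 ng of total RNA was amplified. The deposited values are probe set intensity summaries on a linear scale; RMA and limma were used, per the submitters' processing notes, and their versions are not given in the sources used here. Any floor or later rescaling of the values is unknown.

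Groups came from the sample titles. The intensity was transformed to log2. Of 22690 probe sets 20393 had 1 symbol, which Entrez identifiers matched to RefSeq for 20364. The brightest probe set on average stood for each gene, and its other probe sets served as a check. Spleen was compared with lymph node in limma 3.58.1 (R 4.3.3; lmFit and eBayes, 4 residual degrees of freedom), two-sided, at a threshold of 0.05 after Benjamini-Hochberg adjustment over the 12393 genes (or, for single probe sets, over the 22626 that are not controls). The functions were tested on simulated data. Folds are ratios of geometric means. The number of arrays limits the precision.

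The members and lists were chosen with earlier results of these data known. All members are named, and of each pathway list those past the threshold or else up to 2 with the smallest adjusted p. For members past the threshold, the 3 genes most alike by root mean square distance were named, among genes above the median level. In marker lists, named genes passed the threshold, with some exceptions. Fcrla, Cd207, Epcam, Cd79a, Cd79b, Ms4a1, Pax5, S100a8 and S100a9, and Il23a of the pathway lists, were named after their values were seen. The motifs were also chosen after the members' values were known. Of the members, Hes1 and Hey1 have no promoter shown. Alternatives changed the scaling (median centring, repeated quantile normalization, 16 added before log2), the genes (only those above the median level), the probe sets (mean per gene, no cross-hybridising designs), the model (robust trended eBayes, array weights, replicate block) or the arrays (each one omitted, and the pair numbered 3 omitted). The poly-A level as a covariate was added after seeing the data.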

Additional observations from a re-analysis of the deposited data

How the results depend on the processing

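Of 149 values of single members under 17 alternatives, 129 kept their direction and their side of the threshold, 8 lost the call, 7 gained it and 5 changed sign without a call. The sign changes were Hes1 without lymph node array 2 (0.018) and without spleen array 2 (0.12), Nrarp without spleen array 1 (-0.13) and with the poly-A covariate (-0.023), and Notch2 as the mean of its probe sets (-0.098). The filter at the median level left out Dll1, Nrarp, Hes1 and Hey1. With 1 array left out, Nrarp ranged from -0.13 to 1.04 and Hes1 from -0.35 to 0.12, the count of members past the threshold was 1 to 2, that of further pathway genes 1 to 4 and that of all genes 47 to 475. With 16 added to each value these counts were 1 member and 2 pathway genes. Median centring left 2 pathway genes, array weights called 764 genes in all, and the poly-A covariate left 0 genes, 0 members (2 at an unadjusted p of 0.05 in limma) and 0 pathway genes (3 unadjusted), with 3 residual degrees of freedom. The cause of these shifts was not tested. The replicate block called 519 genes and 3 members, Notch1 among them (adjusted p = 0.0139). The deviations of same-numbered arrays correlated at 0.02, 0.24 and 0.16, and those of differently numbered arrays at -0.28 to 0.13. Not every array correlated best with its own number. The labels name no pairing, and so few weak correlations cannot decide whether same-numbered arrays were paired. Signals near background limit what can be read for Nrarp, Hes1 and Hey1.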
